A study of Mus musculus with 6 samples.

Results

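Intermediate filaments are the cytoskeletal and nuclear filaments that give a cell its resistance to strain, and the proteins that build them mark cell types. The 10 genes described here are the rows of the count tables whose symbols are Vim, Des, Nes, Lmna, Lmnb1, Krt7, Krt8, Krt18, Krt19 and Plec, which makes 10 of the 55364 genes listed. They were chosen by name and not by any measured value. They encode the cytoplasmic filament proteins of mesenchymal cells (Vim, Des and Nes), the nuclear lamins (Lmna and Lmnb1), the keratins of simple epithelia (Krt7, Krt8, Krt18 and Krt19) and plectin (Plec), which ties filaments to the rest of the cytoskeleton.

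RNA of primary mouse lung fibroblasts (LFs) was sequenced from the ends of the transcripts with Quant-Seq, a method that primes cDNA at the poly(A) tail, in 3 libraries of wt LFs and 3 libraries labelled TKS5 KO. In the labels the second genotype is a knockout, whereas the study writes Tks5+/-, and its libraries are named here by their label, or KO-labelled for short. The LFs came from C57Bl6/J mice aged 8 to 10 weeks and were used at passage 2 or 3. Cultures of both genotypes had all been kept in medium without serum that held 10 ng/ml TGFβ, for 24 h, a treatment that turns fibroblasts into contractile myofibroblasts, and untreated LFs were not analysed here. The targeted gene, Sh3pxd2a, encodes the podosome scaffold TKS5, and its exon 11 is removed by a Cre recombinase under the ubiquitous CMV promoter, so the change was not limited to fibroblasts. Which of the recombined alleles these LFs carried is not given in the sources used here. The labels do not say whether replicates came from separate animals, so the p-values measure the spread between these samples, which may be technical.

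In mesenchymal cells, vimentin forms the main cytoplasmic network, desmin is the filament protein of muscle, and nestin is best known from progenitor cells, where it assembles together with vimentin. Keratins form filaments only as pairs of a type I and a type II protein, and the pair of Krt18 (type I) and Krt8 (type II) is the first made in simple epithelia and is also made in mesothelium. The lamins line the inner face of the nuclear envelope, where A-type lamins come from Lmna and B-type lamins from Lmnb1 and Lmnb2.

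The raw counts of the libraries added up to between 1344507 and 2369882. Levels are given as CPM, the counts of a gene per 1000000 counts of its library, after scaling by the TMM method, which sets libraries to a common level over most genes. A gene was called where edgeR's quasi-likelihood F test gave a Benjamini-Hochberg adjusted p under 0.05 over the 10346 genes tested and a fold change of at least 1.2, and each adjusted p of a gene comes from that test. Sh3pxd2a gave 205, 190 and 284 counts in the wt libraries (replicates 1, 2 and 3) and 238, 258 and 260 in the KO-labelled libraries (log2 fold change 0.29, adjusted p = 0.249). Reads at the end of its transcripts lie outside the removed exon. As the allele is not given, whether these counts can check the labels cannot be said. By PCR the paper reports less Tks5 mRNA in its Tks5+/- LFs, a fall that these counts did not show. Xist had 0 counts in all 6 libraries, while the Y-linked gene Ddx3y was lower in the KO-labelled libraries (log2 fold change -2.84, adjusted p = 1.45e-08). Eif2s3y and Kdm5d, also Y-linked, did not show this, as Eif2s3y had 62 counts in wt and 46 in KO-labelled libraries (log2 fold change -0.23, adjusted p = 0.688) and Kdm5d 16 and 13. Uty, a further Y-linked gene, had 42 counts in wt and 15 in KO-labelled libraries. It was not tested, and its CPM overlapped between the groups. Nnt, a further library check, had 47, 89 and 107 counts in wt libraries and 36, 18 and 19 in the KO-labelled libraries (log2 fold change -1.56, adjusted p = 2.38e-04). The paper names C57Bl/6 N blastocysts for the targeted line, and it describes its LFs as isolated from littermate wt and Tks5+/- mice. Whether strain background differed between the groups was not tested. Summed macrophage markers stood apart in wt replicate 3, at 1830 CPM against 343 and 312 in the other 2 wt libraries.

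Vim was the member that rose, and Lmna, Plec and Des fell in the KO-labelled libraries. Krt18 was read almost only in wt libraries. Krt7 and Krt8 had reads only in wt libraries, at counts too low for the test, and Krt19 had a few reads in both groups. In bulk RNA, fewer cells of a type and less RNA per cell cannot be told apart. Of the 10 members, 7 were deep enough to be tested, and 5 were called, 1 higher and 4 lower. Among all genes tested, 44.9% were called, 22.8% higher and 22.1% lower, so a call by itself sets no member apart from other genes. Of the genes called, 49.2% were lower, and 74.3% with library totals in place of the TMM scaling. Krt18 passed the filter on low counts through its wt libraries alone, so it could be tested only because it was higher there, and its call adds nothing to its counts. Of the other 6 tested members, 1 was called higher and 3 lower, the CPM of the groups did not overlap in 4, against 53.8% of all genes tested, and the median log2 fold change was -0.91, against -0.05 for all genes tested. With any 1 library left out the number of members called was again 5, Krt18 included. In the plot of CPM by library, the groups part for Vim, Des, Lmna, Plec, Krt18, Krt7 and Krt8.

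**Figure D1:**
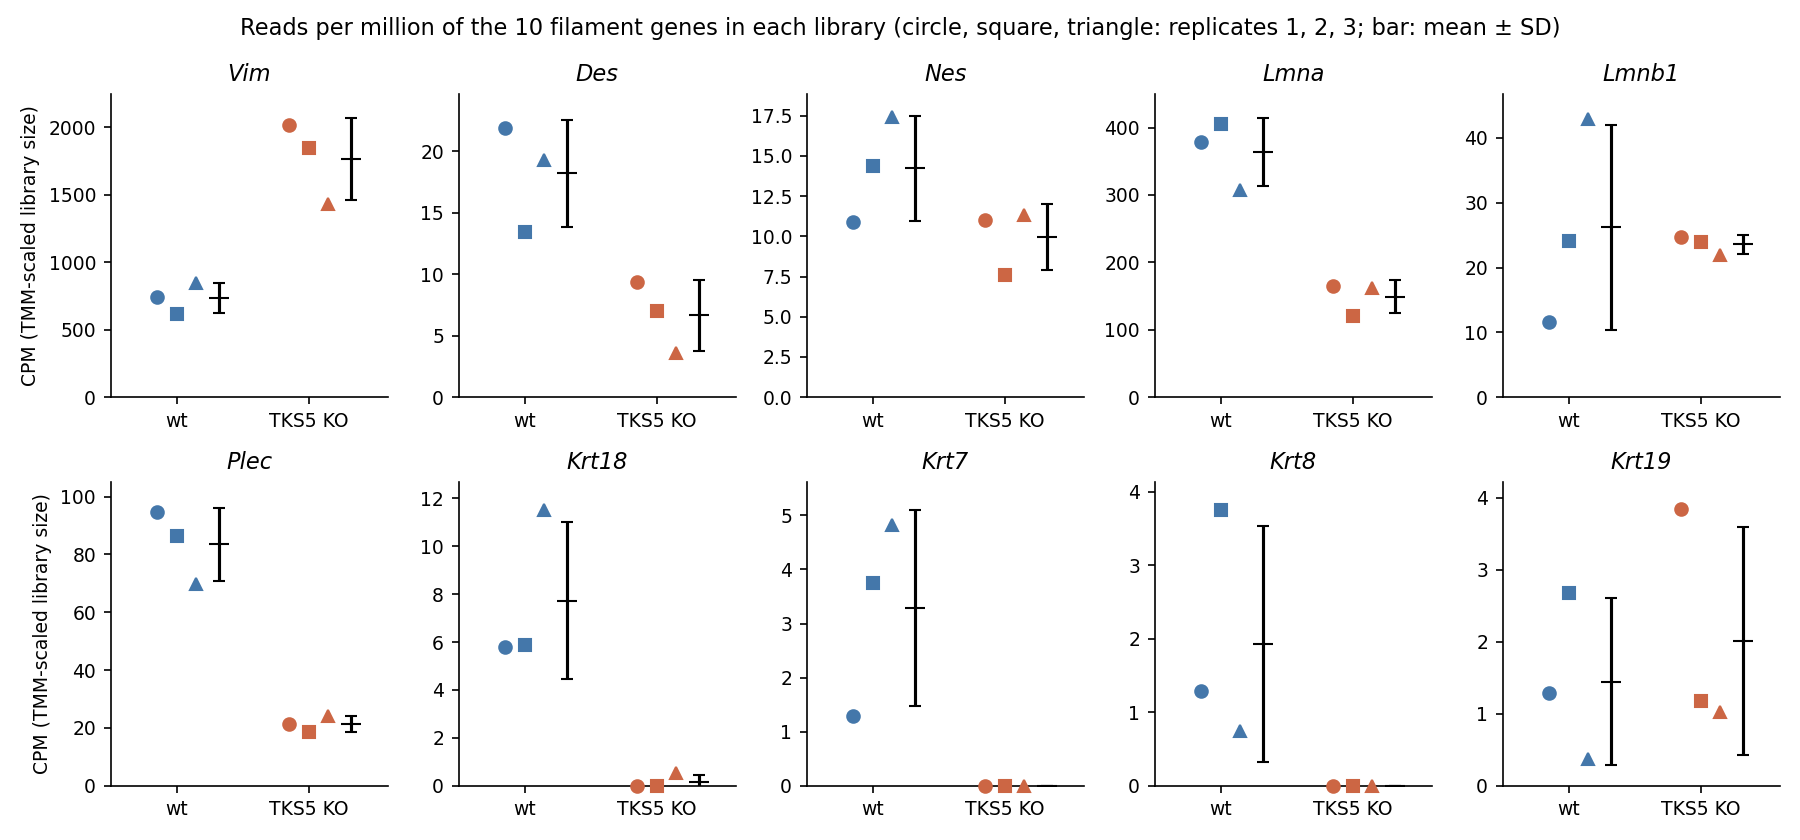
CPM (vertical axes, linear, from 0, on a scale of its own in each panel) of the 10 filament genes in the 3 wt libraries and the 3 KO-labelled libraries, with symbols for replicates 1, 2 and 3 and bars for the mean ± SD. Vim is higher in all 3 KO-labelled libraries, Lmna, Plec, Des, Krt18, Krt7 and Krt8 are lower in all 3, and the groups overlap for Nes, Lmnb1 and Krt19.

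Vim encodes vimentin, the filament protein of fibroblasts. The gene (ENSMUSG00000026728) spans bases 13573927 to 13582826 of chromosome 2 of GRCm38, on the forward strand. Vim gave 1152, 1155 and 2279 counts in the wt libraries (replicates 1, 2 and 3), or 741, 618 and 845 CPM, and 3680, 3168 and 2797 counts in the KO-labelled libraries, or 2020, 1850 and 1430 CPM. The lowest KO-labelled library lay above the highest wt library. The mean rose from 735 ± 114 CPM (SD, n = 3) in wt libraries to 1770 ± 303 (SD, n = 3), which was 2.41-fold higher (log2 fold change 1.27, standard error 0.21, 95% interval 0.82 to 1.71, adjusted p = 5.6e-05). The exact permutation test on its CPM gave a two-sided p = 0.1, which is as small as 3 against 3 can reach. Vim was called higher under each of the 19 alternatives, which were other tests, scalings, filters and corrections and fits without 1 library. With library totals as the scaling its log2 fold change was 0.85, where the median of all genes moved to -0.47, and with limma on the normalized counts of the authors 0.57 (adjusted p = 0.0401).

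Des encodes desmin, the filament protein of smooth, cardiac and skeletal muscle, which pericytes and some myofibroblasts also make. The gene (ENSMUSG00000026208) spans bases 75360329 to 75368579 of chromosome 1 of GRCm38, on the forward strand. Its end is covered by the antisense gene Gm15179, which had 0 counts, and the sources used here do not say whether reads were counted by strand. Des had 34, 25 and 52 counts in wt libraries and 17, 12 and 7 in the KO-labelled libraries. This was 21.9, 13.4 and 19.3 CPM against 9.33, 7.02 and 3.58 CPM, with no overlap. The mean fell from 18.2 ± 4.36 CPM (SD, n = 3) to 6.64 ± 2.89 (SD, n = 3), which was 2.73-fold lower (log2 fold change -1.45, standard error 0.38, 95% interval -2.23 to -0.67, adjusted p = 0.00343). Leaving out any 1 library gave log2 fold changes of Des from -1.73 to -1.11, called lower each time. Vim and Des, close relatives within the type III filament proteins, thus moved in opposite directions, and they did so under every alternative that tested both.

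Nes encodes nestin. The gene (ENSMUSG00000004891) spans bases 87971078 to 87980451 of chromosome 3 of GRCm38, on the forward strand. Nes had 17, 27 and 47 counts in wt libraries and 20, 13 and 22 in the KO-labelled libraries. In CPM these were 10.9, 14.4 and 17.4 against 11, 7.61 and 11.3, so that the groups overlapped. Its log2 fold change of -0.53 was not past the threshold (standard error 0.34, 95% interval -1.24 to 0.18, adjusted p = 0.212). The interval allows both a fall larger than 2-fold and a small rise. Nes was called lower with library totals as the scaling (-0.95, adjusted p = 0.0281), under which the median of all genes was -0.47, and under none of the other 18 alternatives.

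Lmna encodes lamins A and C, which strengthen the nucleus and are made in larger amount in stiff tissues. The gene (ENSMUSG00000028063) spans bases 88480147 to 88509956 of chromosome 3 of GRCm38, on the reverse strand. Lmna gave 587, 759 and 830 counts in the wt libraries (replicates 1, 2 and 3), or 378, 406 and 308 CPM, and 300, 207 and 317 counts in the KO-labelled libraries, or 165, 121 and 162 CPM. The highest KO-labelled library lay below the lowest wt library. The mean fell from 364 ± 50.6 CPM (SD, n = 3) to 149 ± 24.4 (SD, n = 3), which was 2.43-fold lower (log2 fold change -1.28, standard error 0.21, 95% interval -1.72 to -0.85, adjusted p = 3.81e-05). Lmna was called lower under each of the 19 alternatives, with a log2 fold change of -1.70 to -0.98. Lamins A and C end at different places in the gene, and the counts were summed per gene, so the 2 products cannot be told apart here.

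Lmnb1 (ENSMUSG00000024590) encodes lamin B1, a lamin present in most nucleated cells and lost from senescent ones. Lmnb1 gave 18, 45 and 116 counts in the wt libraries (replicates 1, 2 and 3) and 45, 41 and 43 in the KO-labelled libraries. The wt libraries spread from 11.6 over 24.1 to 43.0 CPM, while the KO-labelled ones lay between 22.0 and 24.7 CPM. Its log2 fold change of -0.20 was not past the threshold (standard error 0.34, 95% interval -0.91 to 0.51, adjusted p = 0.658), and without wt replicate 3 it was 0.38 (adjusted p = 0.407). The ratio of Lmna to Lmnb1 counts within a library, which needs no scaling, was 32.6, 16.9 and 7.16 in wt libraries and 6.67, 5.05 and 7.37 in the KO-labelled libraries. The mean log2 ratio was 3.98 ± 1.10 (SD, n = 3) in wt libraries and 2.65 ± 0.28 (SD, n = 3) in the KO-labelled libraries, a difference of -1.33 that did not separate the groups (exact two-sided permutation test, p = 0.2). The ratio of wt replicate 3 fell among those of the KO-labelled libraries.

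The partners of the lamins were called both ways, at about the share of all genes. Of 12 genes of the nuclear envelope, 10 were tested, and 2 were called lower and 2 higher, where 22.1% and 22.8% of all genes tested were. Their median log2 fold change was -0.12. Banf1, whose product bridges chromatin and the envelope, rose by 1.53 on the log2 scale (adjusted p = 7.28e-06), and Emd, the gene of the lamin-binding protein emerin, by 0.94 (adjusted p = 7.28e-04). Sun2, which links lamin A to the cytoskeleton across the envelope, had a log2 fold change of -1.55 (adjusted p = 9.09e-05). Syne2, the gene of nesprin-2, a long protein that reaches into the cytoplasm from the same bridge, was also called lower, kept by the filter through the wt libraries alone. Of 6 genes that process lamins or chaperone filaments, Fnta, a subunit of the enzyme that farnesylates prelamin A, was higher (1.09, adjusted p = 5.36e-04), and Cryab, the desmin chaperone αB-crystallin, was lower (-0.51, adjusted p = 0.0387). The other 4, among them Zmpste24, the protease that cuts prelamin A, were not called. Of 15 proliferation genes, 12 were tested, and 6 were called higher and 0 lower, where 22.8% and 22.1% of all genes tested were. They are given because levels of lamin B1 are known to differ between cycling and resting cells. Their summed level was 380 to 568 CPM in wt libraries and 850 to 1270 in the KO-labelled libraries, while the groups overlapped for Lmnb1. Among the proliferation genes, Cdk1, the kinase that starts mitosis, had the smallest adjusted p (log2 fold change 3.09, adjusted p = 3.14e-09). The rise was not uniform, as Mki67 (-0.49), Top2a (-0.22) and Ccna2 (-0.01) were among the 6 not called.

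Plec encodes plectin, a giant linker that binds vimentin, desmin and keratin filaments to actin, microtubules and adhesions. The gene (ENSMUSG00000022565) spans bases 76170974 to 76232574 of chromosome 15 of GRCm38, on the reverse strand. Plec gave 147, 161 and 188 counts in the wt libraries (replicates 1, 2 and 3), or 94.6, 86.2 and 69.7 CPM, and 39, 32 and 47 counts in the KO-labelled libraries, or 21.4, 18.7 and 24.1 CPM. The groups stood far apart. The mean fell from 83.5 ± 12.7 CPM (SD, n = 3) to 21.4 ± 2.66 (SD, n = 3), which was 3.87-fold lower (log2 fold change -1.95, standard error 0.23, 95% interval -2.44 to -1.47, adjusted p = 9.6e-07). The size of this fall moved with the correction for transcript length. The longest transcript of Plec has 15455 bases, and across 10339 tested genes log2 fold changes fell with length (Spearman's rho = -0.397, taken across genes, so not over independent replicates). The median was -0.83 over the 225 genes of at least 10000 bases and 0.56 over the 2753 genes under 2000 bases. After a correction of every library for its length trend, the log2 fold change of Plec was -1.11 (adjusted p = 5.57e-04), and -0.80 once GC content was corrected as well (adjusted p = 0.00863), and it was still called lower. With the length correction, the log2 fold change of Vim was again 1.27 and that of Nes was -0.14, as the plot of fold changes by setting shows.

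**Figure D2:**
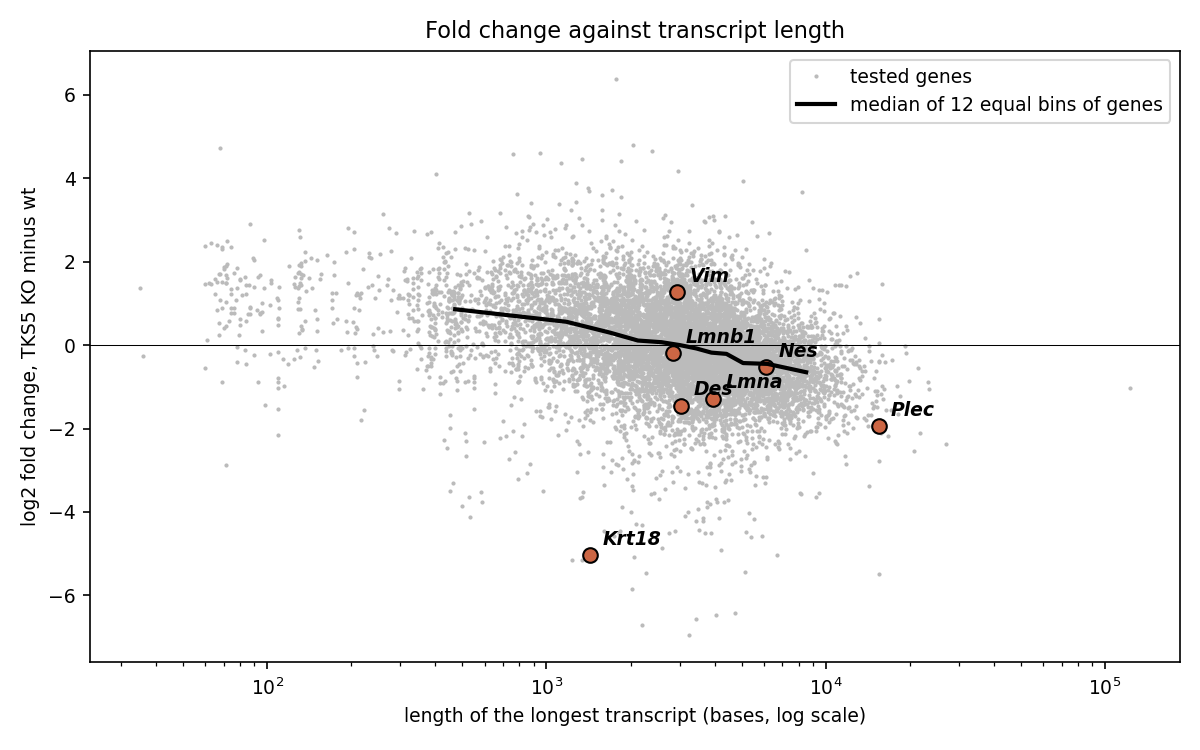
Log2 fold change (TKS5 KO minus wt, vertical axis) against the length of the longest transcript in bases (horizontal log axis), with a grey point for each tested gene, a line for the median of 12 equal bins of genes and labelled points for the 7 tested filament genes. Plec, at 15455 bases, sits at the long end where most genes fell, while Krt18, Des and Lmna lie below the line and Vim above it. The height of Krt18 rests on 1 read in the KO-labelled libraries and on the prior count.

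**Figure D3:**
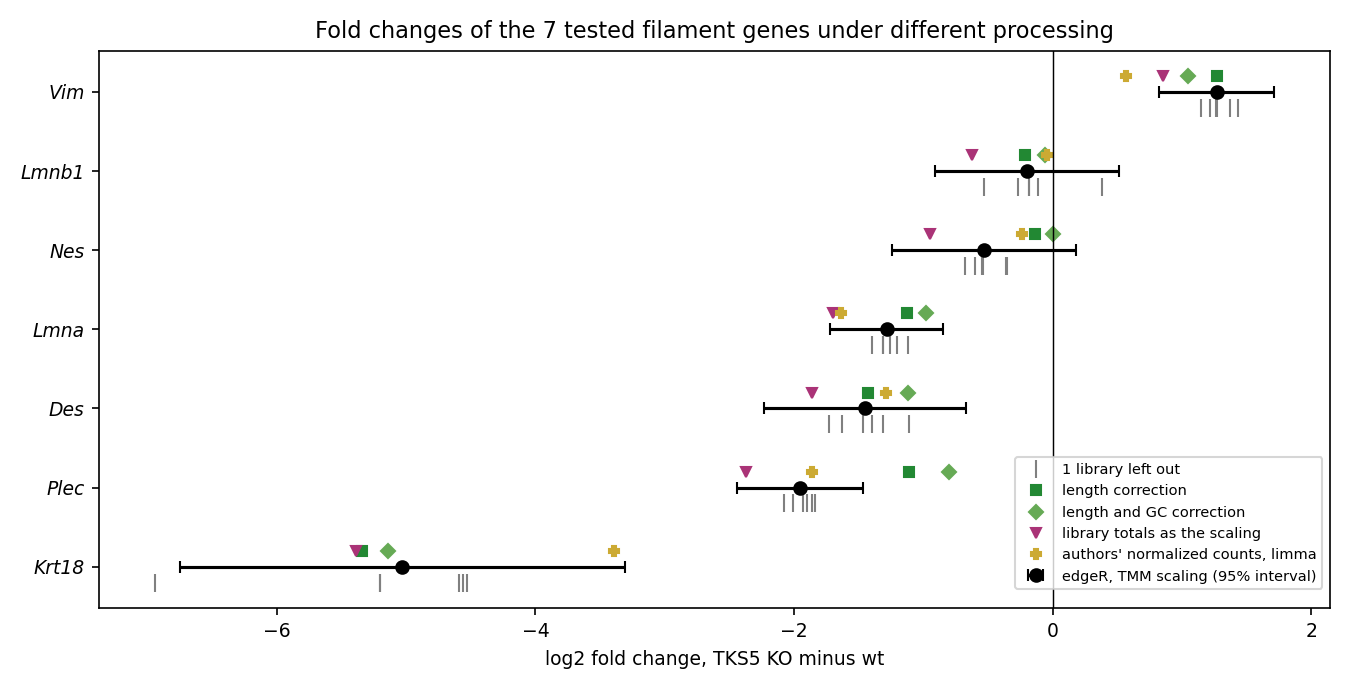
Log2 fold change (TKS5 KO minus wt, horizontal axis) of the 7 tested filament genes, with black points and bars for the estimate and its 95% interval, ticks for the fits without 1 of the 6 libraries and coloured symbols for other scalings and corrections. Vim stays above 0 and Lmna, Des, Plec and Krt18 stay below 0 at every symbol, while the ticks of Lmnb1 cross 0. The fitted values and interval of Krt18, with 1 read in the KO-labelled libraries, depend on the prior count.

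Most of the other linkers tested were lower as well. Of 8 plakin and desmosome genes, 5 were tested, and 4 were called lower and 0 higher, where 22.1% and 22.8% of all genes tested were. The median log2 fold change of the 5 was -1.04. Ppl, the gene of periplakin, had a log2 fold change of -1.43 (adjusted p = 8.53e-06), Jup, the gene of the junction protein plakoglobin, -1.51 (adjusted p = 6.31e-04), and Macf1, a long linker of actin and microtubules, -1.04 (adjusted p = 6.88e-04). Dst, the gene of dystonin, was the fourth, and Pkp2 was not called. The longest transcripts of Macf1 and Dst have 23495 and 23279 bases. The log2 fold changes of both (Dst -0.89) lay near the median of -0.83 over all tested genes of at least 10000 bases. Summed over the list, the linkers had 374 to 411 CPM in wt libraries and 149 to 185 in the KO-labelled libraries. Dsp, the gene of desmoplakin, which anchors keratins at desmosomes, had 0, 6 and 6 counts in wt libraries and 0 in each KO-labelled library. Of 11 other filament proteins, Lmnb2 alone was tested and was not called (log2 fold change 0.95, adjusted p = 0.0797), and Gfap, Prph, Nefl and Bfsp2 had no count.

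Krt18, Krt7 and Krt8, the keratins of simple epithelia and of mesothelium, were read almost only in wt libraries. Krt18 (ENSMUSG00000023043, chromosome 15 of GRCm38, 102028180 to 102032027, forward strand) gave 9, 11 and 31 counts in the wt libraries and 0, 0 and 1 in the KO-labelled libraries. In CPM these were 5.79, 5.89 and 11.5 against 0, 0 and 0.512, and the groups did not overlap. Pooled over libraries, the wt level was 45.7-fold that of the KO-labelled libraries (51 against 1 counts), with an exact 95% counting interval from 7.84 to 1840. Krt18 is counted among the genes called lower, a direction that the filter largely fixed. Its fitted log2 fold change, drawn in the plots of fold changes, depends on the prior count and is no measure of the size of the difference. Without KO-labelled replicate 3, which held the single read, the wt level of Krt18 was 9.81 times a limit of 3 counts over the group. Intervals of counts cover counting error only, since reads without molecular identifiers are not independent molecules. Limits of 3 counts cover the counting error of the KO-labelled libraries alone and take the wt counts as exact.

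Krt7 (ENSMUSG00000023039, chromosome 15 of GRCm38, 101411043 to 101430313, forward strand), a type II keratin of simple epithelia and mesothelium, had 2, 7 and 13 counts in wt libraries and 0 in each KO-labelled library. A total of 0 counts allows up to 3 counts over the group, or 0.547 CPM. The pooled wt level of Krt7 was 6.57 times this limit (4.81 times without wt replicate 3). Krt8 (ENSMUSG00000049382, chromosome 15 of GRCm38, 101996698 to 102004482, reverse strand), the type II partner of Krt18, had 2, 7 and 2 counts in wt libraries and 0 in each KO-labelled library, and its pooled wt level was 3.29 times the limit. Krt8 rested on wt replicate 2, without which its pooled wt level, taken as exact, was 1.72 times the limit. Its pseudogene Krt8-ps could share reads with it. Krt7 and Krt8 were too shallow for the filter and were not tested in the main fit. Within wt libraries the ratio of Krt8 to Krt18 counts was 0.222, 0.636 and 0.0645, and in the KO-labelled libraries there was no ratio to compare, as Krt8 had 0 counts.

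Krt19 (ENSMUSG00000020911, chromosome 11 of GRCm38, 100140810 to 100148665, reverse strand), a type I keratin that can also pair with Krt8, was read in both groups. It had 2, 5 and 1 counts in wt libraries and 7, 2 and 2 in the KO-labelled libraries. The groups overlapped at 0.371 to 2.68 CPM and 1.02 to 3.84 CPM (exact two-sided permutation test, p = 0.7). The pooled wt level was 0.652 times that of the KO-labelled libraries, with a 95% counting interval from 0.228 to 1.78, so that a difference was not detectable at this depth. Krt18, Krt7 and Krt8 together came to 8.37, 13.4 and 17.1 CPM in wt libraries and 0, 0 and 0.512 CPM in the KO-labelled libraries.

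Of the 54 Krt genes listed, 41 had no count in any library. Those with reads had 142 counts in wt libraries (25, 45 and 72 in replicates 1, 2 and 3) and 42 in the KO-labelled libraries (21, 13 and 8). Of them, 7 were read in wt libraries alone, among them Krt14, Krt23, Krt24 and Krt28, which had at most 2 counts in any library. Apart from Krt18 and Krt7, only Krt80, an epithelial keratin, reached 10 counts in a library, with 5, 9 and 11 in wt libraries and 2, 0 and 0 in the KO-labelled libraries. Krt10, which had 2, 1 and 2 counts in wt libraries and 4, 9 and 4 in the KO-labelled libraries, was more abundant in the latter by count, and Krt9 was read in KO-labelled replicate 1 alone, at 7 counts. Both were picked out after their values were seen.

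Krt7, Krt8 and Krt18 lie in the same keratin cluster on chromosome 15, where 23697 bases separate Krt8 from Krt18. Their promoters are set beside that of Vim because Vim was higher and these keratins lower in the KO-labelled libraries. Each line gives the 300 bases from 250 before to 50 after the transcription start, 5′ to 3′ on the strand of the gene, from RefSeq on GRCm38.p6, namely Vim chr2:13574061-13574360 (forward), Krt7 chr15:101412153-101412452 (forward), Krt8 chr15:102004293-102004592 (reverse) and Krt18 chr15:102027966-102028265 (forward). Capitals mark matches on either strand to the TATA box (letters TATAAA), the GC box (letters GGGCGG), the CCAAT box (named for its letters) and the AP-1 site (letters TGANTCA).
Vim: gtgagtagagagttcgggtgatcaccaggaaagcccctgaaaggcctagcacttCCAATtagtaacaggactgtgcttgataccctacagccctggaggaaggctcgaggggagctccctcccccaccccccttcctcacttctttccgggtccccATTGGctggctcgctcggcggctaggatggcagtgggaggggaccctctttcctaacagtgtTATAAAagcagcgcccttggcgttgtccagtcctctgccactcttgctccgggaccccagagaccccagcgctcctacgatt
Krt7: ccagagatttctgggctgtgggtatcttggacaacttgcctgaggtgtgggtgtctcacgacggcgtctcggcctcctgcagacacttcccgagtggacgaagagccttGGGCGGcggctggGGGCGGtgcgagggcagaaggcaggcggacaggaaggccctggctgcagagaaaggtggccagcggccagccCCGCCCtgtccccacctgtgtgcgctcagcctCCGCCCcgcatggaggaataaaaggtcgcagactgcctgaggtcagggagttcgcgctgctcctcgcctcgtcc
Krt8: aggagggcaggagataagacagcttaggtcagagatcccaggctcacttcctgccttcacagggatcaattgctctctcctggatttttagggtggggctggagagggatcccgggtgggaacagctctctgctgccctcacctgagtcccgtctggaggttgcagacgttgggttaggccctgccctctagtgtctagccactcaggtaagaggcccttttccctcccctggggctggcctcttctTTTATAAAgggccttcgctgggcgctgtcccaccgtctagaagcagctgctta
Krt18: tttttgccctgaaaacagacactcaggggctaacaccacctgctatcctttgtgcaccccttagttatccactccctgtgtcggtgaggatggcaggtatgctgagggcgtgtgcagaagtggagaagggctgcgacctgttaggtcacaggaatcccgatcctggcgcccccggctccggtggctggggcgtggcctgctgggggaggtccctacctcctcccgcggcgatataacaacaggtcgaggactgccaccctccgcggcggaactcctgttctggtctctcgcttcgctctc

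The Vim window holds a TATA box 32 bases before the start, a CCAAT box 196 bases before it and another on the other strand 94 bases before it. In the Krt7 window the GC box occurs 4 times, on the gene's strand 141 and 128 bases before the start and on the other strand 56 and 24 bases before it. Krt8 has the TATA letters on both strands, overlapping, 3 bases and 1 base before the start, and the Krt18 window has none of the 4 motifs. Of 32851 promoter windows of the same length, 13.6% hold a TATA box, 35.7% a GC box, 37.4% a CCAAT box and 7.81% an AP-1 site. Among the windows of Des, Nes and Lmna, the AP-1 letters occur once, in 1 of the 2 windows of Lmna, 40 bases after the start. No motif of the 4 was shared by the 3 keratins that were lower together. A match marks letters and not a bound site. Windows were found for 7 of the 10 members.

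Keratins in a fibroblast culture can come from other cells, so the markers of such cells were set beside them. Of 12 mesothelial markers, 5 were tested, 3 were called lower and 0 higher, and all 3 had passed the filter through the wt libraries alone, so that this count follows in part from the filter. Rspo1 had 10, 27 and 49 counts in wt libraries and 2, 1 and 0 in the KO-labelled libraries, and Upk3b, a uroplakin of mesothelium, had 22, 17 and 29 against 2, 4 and 0. The other was Upk1b. Every one of the 12 had a count in some library. Their summed level overlapped between the groups, at 187 to 241 CPM in wt libraries and 121 to 226 in the KO-labelled libraries. The overlap came from Gpm6a in 1 library, with 128, 8 and 5 counts in the KO-labelled libraries against 8, 13 and 61 in wt libraries, not called. Without Gpm6a, an alternative chosen after seeing the data, the other 11 markers summed to 182 to 220 CPM in wt libraries and 116 to 156 in the KO-labelled ones, with no overlap. Aldh1a2, which was not called, made up most of the sum. Msln, the gene of mesothelin, had 2, 5 and 4 counts against 5, 0 and 1.

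Epithelial markers were sparse. Of 18, 8 had no count in any library, namely Sftpc, Sftpb and Sftpa1 of the alveolar type II cell, Scgb1a1 of the club cell, the lung epithelial factor Nkx2-1, the basal keratin Krt5, Elf3 and Grhl2. Of the 2 tested, Cldn4, a tight junction claudin, had passed the filter through the wt libraries alone, with 23, 15 and 50 counts there and 0, 3 and 0 in the KO-labelled libraries, and was called lower. Ager, a gene of alveolar type I cells, was higher (log2 fold change 1.82, adjusted p = 4.53e-05). Cdh1, the gene of E-cadherin, was read in wt libraries alone, at 17, 8 and 58 counts, and so was Epcam, at 2, 1 and 3. The summed level of the 18 genes was 25.1 to 64.1 CPM in wt libraries and 33.3 to 68.5 in the KO-labelled libraries. This overlap came from Ager, and the 17 genes without it, also an alternative chosen after seeing the data, summed to 15.5 to 51.2 CPM in wt libraries and 4.09 to 8.19 in the KO-labelled ones. Trp63, another of these markers, was not tested and made up most of that KO-labelled sum. It too was higher in the KO-labelled libraries in CPM without overlap, with 4, 1 and 8 counts in wt libraries against 10, 10 and 8.

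Macrophage and endothelial sums, like that of Krt7, Krt8 and Krt18, were lower in every KO-labelled library. Single genes parted the groups in this way, in either direction, in 53.8% of all genes tested. Of 9 macrophage genes, 8 were tested, 5 were called lower and 0 higher, 4 of the 5 having passed the filter through the wt libraries alone, and their sum was 312 to 1830 CPM in wt libraries and 115 to 132 in the KO-labelled libraries. Of 6 endothelial genes, 4 were tested, 3 were called lower (2 of them, Pecam1 and Kdr, kept through the wt libraries alone) and 0 higher. The sum of the 6 was 106 to 127 CPM against 45.6 to 59.9. Egfl7 made up most of it in wt libraries, at 58.6, 63.1 and 75.3 CPM against 19.2, 19.3 and 23.5. Ramp2 differed by 0.32 on the log2 scale and was not called. Among all genes tested, 22.1% were called lower. Leaving out genes kept through the wt libraries alone, 1 of 4 macrophage and 1 of 2 endothelial genes tested were called lower. Each macrophage and endothelial marker had a count in some library. Without wt replicate 3, the library with the most macrophage reads, the pooled wt level of Krt18 was 32.1-fold that of the KO-labelled libraries, and the log2 fold changes were 1.37 for Vim and -2.08 for Plec. The part of these cells in the fall of the keratins was not tested.

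The labelled cell type showed in its markers. Of 10 fibroblast genes, all were tested, 3 were called higher and 2 lower, with a median log2 fold change of 0.04 and a sum of 4400 to 5990 CPM in wt libraries and 4620 to 7270 in the KO-labelled libraries. Thy1, a surface glycoprotein of fibroblasts, rose by 1.93 on the log2 scale (adjusted p = 1.48e-06), and Fn1, the gene of fibronectin, had a log2 fold change of -1.55 (adjusted p = 3.56e-06). Of 10 smooth muscle and pericyte genes, cells that make desmin, 9 were tested, 3 were called lower and 3 higher. Cspg4, a surface proteoglycan of pericytes and, like Notch3, kept by the filter through the wt libraries alone, had 37, 39 and 58 counts in wt libraries and 4, 2 and 4 in the KO-labelled libraries. Tagln, a gene of the contractile apparatus, went the opposite way from Des and rose by 1.99 on the log2 scale (adjusted p = 1.73e-06), as did Cnn1, the gene of calponin (1.00, adjusted p = 4.52e-04). Myh11, of the same list and not kept through the wt libraries alone, was called lower, like Des (log2 fold change -1.27, adjusted p = 0.00262). Acta2, the marker of myofibroblasts, differed by -0.11 on the log2 scale and was not called (adjusted p = 0.71).

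**Figure D4:**
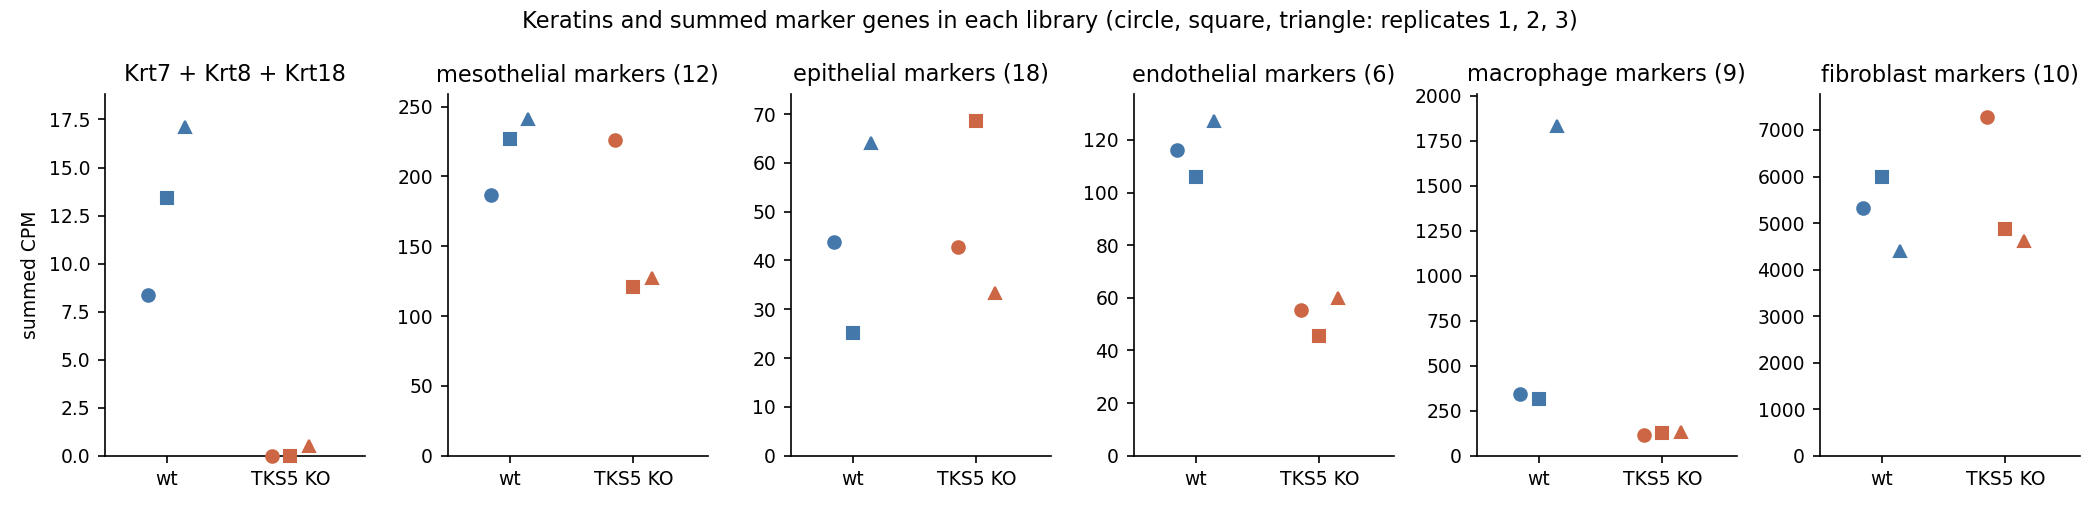
Summed CPM (vertical axes, linear, from 0, on a scale of its own in each panel) of Krt7, Krt8 and Krt18 and of the marker lists of 5 cell types, with the number of genes in brackets, in the 3 wt libraries and the 3 KO-labelled libraries (symbols for replicates 1, 2 and 3). The keratins, endothelial and macrophage sums are lower in all 3 KO-labelled libraries, while the fibroblast sums overlap. The mesothelial and epithelial sums overlap too, through Gpm6a and Ager, and do not without them.

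The profiles most like those of the members over the 6 libraries were sought among genes averaging at least 20 counts, by Pearson's r of log2 CPM. These values are a description, since the libraries fall into 2 groups and a gene that differs between them tends to a high r with any other that does. Vim ran closest to Ssu72 (r = 0.999) and Psma4 (0.998), Lmna to Pold2 (0.998) and Fgf10 (0.997), and Plec to Endod1 (0.999) and Gm20547 (0.998). Des was nearest to Golgb1 (0.993) and Stoml1 (0.992), and Nes to Lancl2 (0.995) and Gcsh (0.993). Krt18 lay nearest to the macrophage gene Itgax (0.997), which had 25, 22 and 96 counts in wt libraries and 0, 0 and 1 in the KO-labelled libraries, and to Suco (0.997). Lmnb1 had few close neighbours, with Xrcc1 (0.981) and Atp5k (0.977) first. An r over 0.9 was reached by 21 genes for Lmnb1, against 236 for Nes, 368 for Des and between 895 and 1048 for Krt18, Vim, Plec and Lmna.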

How the data were processed

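Raw counts of 3' Quant-Seq reads per Ensembl gene were deposited for each of the 6 libraries. Before deposit, the authors used Trim Galore for trimming, HISAT2 and Bowtie2 for alignment to GRCm38 and metaseqR2 for counting on 3' UTR regions, whose counts were added up for each gene. The strand setting of the counting is not given in the sources used here. The deposited normalized counts, used as a score in 1 alternative, were normalized by the authors with EDASeq and rounded; their 6 columns hold the same sorted values. Of 55364 genes listed, 55104 were matched to symbols, and 21720 had a count.

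Counts were filtered (filterByExpr), scaled (TMM) and tested over 10346 genes with the robust quasi-likelihood F test of edgeR 4.0.16 in R 4.3.3, without covariates (common dispersion 0.0429, median prior degrees of freedom 19.2). Called genes had an adjusted p under 0.05 (Benjamini-Hochberg) and a fold change of at least 1.2. Single values were compared by exact two-sided permutation tests, and fold limits were set at 3 counts over a group, with the wt counts taken as exact. Alternatives were DESeq2 1.42.0, limma 3.58.1 (voom, or log2 of the normalized counts plus 1), other scalings, filters, GC content and transcript length corrections (loess span 0.5), a replicate block and each library left out. The bounds without single libraries, the sums without Gpm6a or Ager and the counts without genes kept by the filter through the wt libraries alone were chosen after seeing the data. Promoters came from RefSeq (8 windows). Of each list of other genes, the called genes with the 3 smallest adjusted p, those without a count and a few others, chosen after their values were seen, are named. The members and lists were chosen with earlier results of these data known. Tables and plots were made with pandas 2.3.3, numpy 2.4.6, scipy 1.17.1 and matplotlib 3.10.9.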

Additional observations from a re-analysis of the deposited data

How the results depend on the processing

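Vim, Lmna and Plec were called in the same direction under all 19 alternatives, and Des under the 18 that tested it; Krt18 was lower in the same 18, a direction that the filter largely fixed. With at least 10 counts in every library, Des and Krt18 were not tested and 3 members were called. The number of genes called was 4642 (49.2% of them lower), and 5306 (74.3% lower) with library totals as the scaling, which gave 6 members. The other alternatives gave 3705 to 4953 genes. With no filter on low counts 7 members were called. Krt7 (log2 fold change -5.75, adjusted p = 8.54e-04) and Krt8 (-4.92, adjusted p = 0.0239) were tested there and called lower. With 0 counts in the KO-labelled libraries, their fitted values depend on the prior count. Without single libraries, Lmnb1 had log2 fold changes from -0.53 to 0.38 (0.38 without wt replicate 3), the only change of sign among the 7 tested members. The wt level of Krt8, taken as exact, ran from 1.72 to 4.81 times its limit of 3 counts. Correlations of deviations between libraries of the same replicate number were -0.00101, -0.0637 and 0.082, within the range for unlike numbers (-0.102 to 0.0973). With so few libraries they do not show whether replicates were prepared in pairs. With the replicate number as a block, 4668 genes and 5 members were called, and the block changed no call of a member. The ratio of Krt8 to Krt18 has no alternatives because Krt8 had 0 counts in the libraries labelled TKS5 KO. The log2 ratio of Lmna to Lmnb1 differed by -1.90 to -0.81 with 1 library left out. Depth limits the keratins: Krt7, Krt8 and Krt19 had at most 13 counts in any library.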
